A study of Mus musculus with 24 samples.

Results

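Endothelial genes are set out here as 6 genes that mark the cells lining blood vessels: Kdr, Tek, Cdh5, Pecam1, Emcn and Tal1. They were chosen by name with earlier results of these data known, so counts of calls among them are descriptions. Every probe set that the array annotation lists for 1 of these symbols alone was taken. That gave 7 probe sets (2 for Cdh5, 1 for each of the others). This is 6 of 18193 genes and 7 of 34945 probe sets listed for a single symbol on the Affymetrix mouse arrays used. RNA abundance was read on 24 arrays that form 12 groups of 2 biological replicates, all of the C57BL/6 strain. The groups on amplified arrays were primordial germ cells (PGCs) at embryonic day (E) 9.5, PGC-like cells (PGCLCs), day 2 epiblast-like cells (EpiLCs), epiblast stem cells (EpiSCs), epiblast of E5.5 to 6.0 and embryonic stem cells (ESCs). The groups on unamplified arrays were PGCLCs, EpiSCs, EpiLCs of days 1, 2 and 3, and ESCs. Amplified samples went through 22 cycles of PCR from 5 ng of total RNA, which the labels equate with 500 cells. ESCs were kept feeder free in 2i and LIF, EpiLCs were induced from them, PGCLCs were induced from day 2 EpiLCs, and EpiSCs were derived from E5.75 epiblast. PGCs and epiblast came from embryos. The design text mentions fluorescent reporter transgenes without naming them, and how PGCs and PGCLCs were isolated, or how many lines or embryos a sample holds, is not stated there. According to the submitters' design text, PGCLCs were set beside E9.5 PGCs, and EpiLCs beside the epiblast, as their counterparts in the embryo.

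Endothelial cells form the inner lining of vessels and arise in the embryo from mesoderm, close to the first blood cells. Kdr (VEGF receptor 2) and Tek (Tie2, the receptor of the angiopoietins) are receptor tyrosine kinases through which vessels grow and stay stable. Cdh5 (VE-cadherin) and Pecam1 (CD31) hold endothelial cells together at their junctions, and Emcn (endomucin) is a sialomucin of their surface. Tal1 is a basic helix-loop-helix transcription factor needed for blood and for the precursors it shares with endothelium. Pecam1 is not confined to vessels: it is also known from mouse ESCs and early germ cells.

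Promoters were held for 4 of the 6 genes in RefSeq's table (Emcn, Kdr, Tek and Tal1, with 2 for Tal1; build GRCm38.p6, 250 bases before to 50 bases after the start). Those of Emcn, Kdr and Tek are shown because these members were higher in amplified PGCLCs than in amplified EpiLCs (below), and GGAA is the core of the sites of ETS factors, which act on endothelial genes. Capitals mark GGAA on either strand (TTCC on the strand shown), in the promoters of Emcn (chr3:137340828-137341127, plus strand), Kdr (chr5:75978406-75978705, minus strand) and Tek (chr4:94739039-94739338, plus strand), each 5' to 3' in the direction of its gene.
Emcn: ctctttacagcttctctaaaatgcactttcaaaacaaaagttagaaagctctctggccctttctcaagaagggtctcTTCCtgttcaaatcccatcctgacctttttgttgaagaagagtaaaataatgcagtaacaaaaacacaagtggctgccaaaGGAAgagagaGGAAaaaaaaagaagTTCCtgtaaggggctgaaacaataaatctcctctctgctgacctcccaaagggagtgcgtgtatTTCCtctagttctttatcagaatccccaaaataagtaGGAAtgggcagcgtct
Kdr: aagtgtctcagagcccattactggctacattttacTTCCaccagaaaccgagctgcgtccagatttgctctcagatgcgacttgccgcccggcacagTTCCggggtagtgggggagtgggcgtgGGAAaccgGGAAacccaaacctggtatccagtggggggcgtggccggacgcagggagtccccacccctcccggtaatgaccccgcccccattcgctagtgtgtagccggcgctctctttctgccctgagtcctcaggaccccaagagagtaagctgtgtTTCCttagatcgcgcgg
Tek: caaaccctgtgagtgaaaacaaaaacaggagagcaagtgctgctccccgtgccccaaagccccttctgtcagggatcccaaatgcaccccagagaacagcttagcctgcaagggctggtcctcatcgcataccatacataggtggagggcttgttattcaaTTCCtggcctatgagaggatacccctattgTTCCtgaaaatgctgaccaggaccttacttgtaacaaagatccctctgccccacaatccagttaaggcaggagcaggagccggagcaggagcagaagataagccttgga
The Emcn promoter held 6 matches to GGAA, Kdr 5 and Tek 2, and both Tal1 promoters held 4. Of 32851 promoters of this length, 96% held at least 1 match, and 15.7%, 28.6% and 84.6% held as many as Emcn, Kdr and Tek. The GATA core GATAA, searched on both strands, matched once in the Emcn and Tek promoters and in 1 of the 2 Tal1 promoters, and in 25.4% of all promoters. The E-box CANNTG, to which Tal1 binds with a partner, matched in the promoters of Emcn, Kdr, Tek and 1 of the 2 of Tal1, and in 72.3% of all promoters. These are matches of letters, and a member's count of GGAA was within the range that many promoters have.

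Values are deposited intensities on a linear scale, with the lowest listed value at 1. A probe set entered the tests of a set of 12 arrays if at least 2 of them lay above that set's 40th percentile (24 on amplified and 28.1 on unamplified arrays, the filter level below). All 7 probe sets passed in both sets, but on unamplified arrays Emcn and Cdh5 1433956_at would not have passed without the 2 PGCLC arrays, where they were high, so their pass there presupposes the difference. On amplified arrays each of these probe sets lay above the level on 4 arrays, all of PGCLCs or PGCs. They thus passed there only through the germ cell groups. Kdr and Tal1 lay above the level on all 12 arrays of each set. A difference was called when limma's adjusted p (Benjamini-Hochberg, over all probe sets tested) was under 0.05 and its size at least 1 on the log2 scale. Where the lower group lay under the filter level, the fold is given as "at least", against that level, and the fitted log2 difference depends on the floor put under low values. Fewer cells of a type and less RNA per cell cannot be told apart in these bulk samples.

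Among amplified arrays, the median intensity was 36.2 to 40.03 and the Actb control ratio (5' over 3' probe set) was 0.0503 to 0.206. On unamplified arrays these were 41.1 to 49.2 and 0.792 to 0.874. Replicate arrays correlated at r = 0.904 (EpiSCs) to 0.968 on amplified arrays and at 0.971 (PGCLCs) to 0.989 on unamplified arrays. Of 15 germ cell genes, 11 were higher and 1 lower both in PGCs against epiblast and in PGCLCs against EpiLCs on each kind of array. Over all probe sets, 5.20% were called higher in the former, and 5.87% (amplified) and 9.25% (unamplified) in the latter. Prdm14, a germ cell regulator, had 1154 and 1334 in PGCs, against 1.00 and 6.53 in epiblast.

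**Figure D1:**
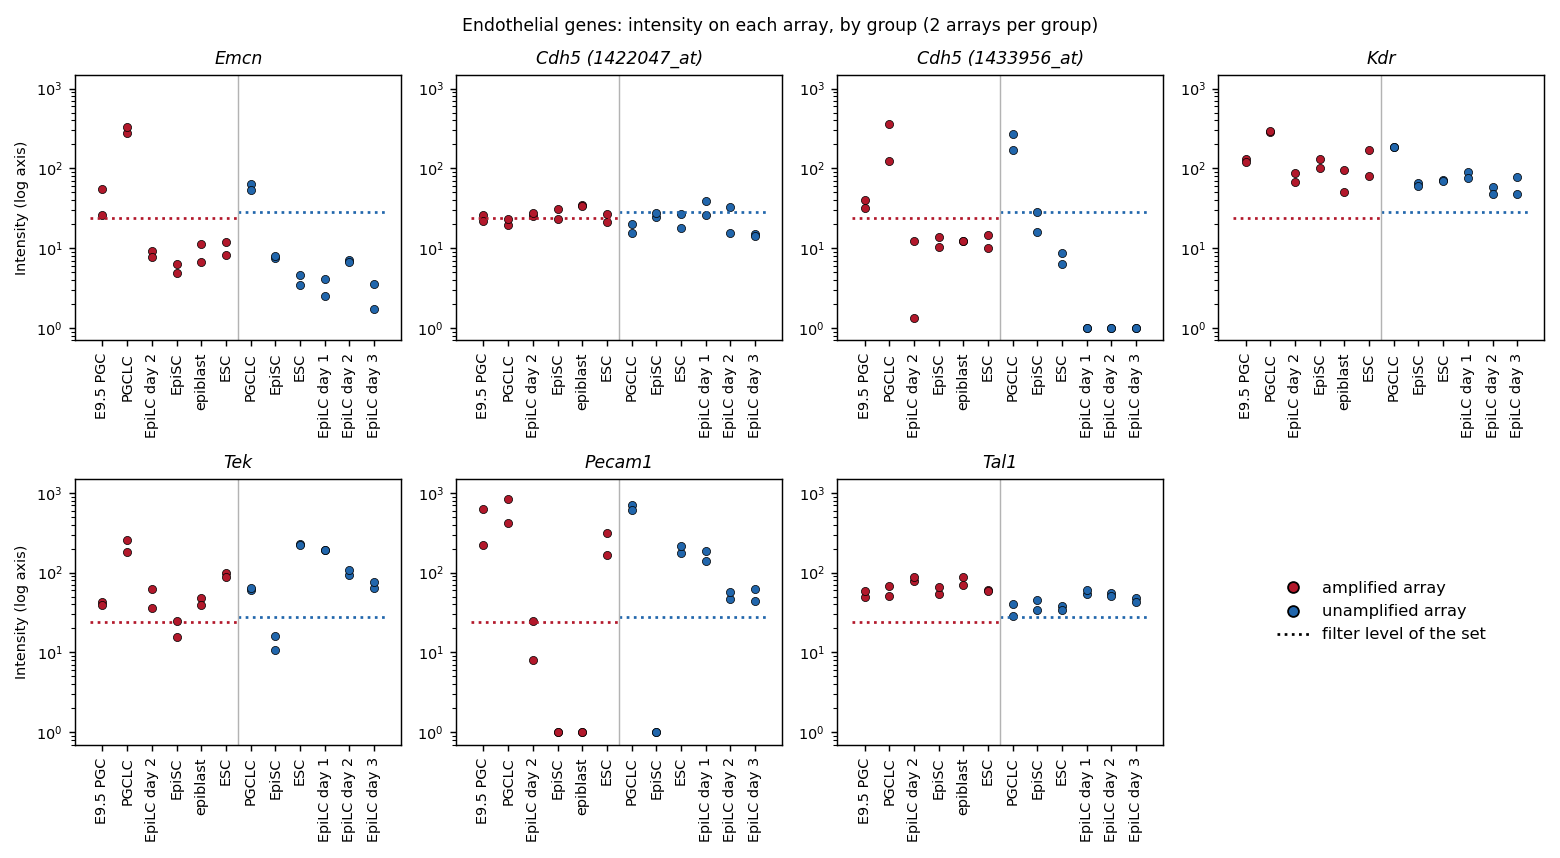
Intensity (log axis) of each probe set of the 6 genes on every array, by group, with amplified arrays in red and unamplified arrays in blue; each point is 1 array and dotted lines mark the filter level of each set. Emcn and Cdh5 1433956_at stand above the other cultured groups in PGCLCs on both kinds of array, and Tek is high in PGCLCs on amplified arrays but not on unamplified ones.

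The vessel surface and junction genes rose in PGCLCs relative to day 2 EpiLCs, the cells they are induced from, on both kinds of array. Emcn, Cdh5 (1433956_at), Kdr and Pecam1 were called higher with and without amplification, Tek only with it, and Tal1 and the other Cdh5 probe set in neither. On amplified arrays 5 of the 7 probe sets were called, all higher, where 11.3% of 26745 tested were called and 5.87% called higher. On unamplified arrays 4 of 7 were called, all higher, where 21.3% of 26893 were called and 9.25% called higher. Of these 4, 2 (Emcn and Cdh5 1433956_at) passed the filter only through PGCLCs, so this count is given as a description.

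Emcn was at or near background outside germ cell groups. It had 276 and 333 in amplified PGCLCs, against 9.15 and 7.82 in amplified EpiLCs. That is at least 12.6-fold higher (log2 difference 5.16 ± 0.44 SE, limma adjusted p = 0.000126). On unamplified arrays it had 64.1 and 53.0 in PGCLCs, against 7.01 and 6.62 in day 2 EpiLCs, at least 2.08-fold higher (3.10 ± 0.32, adjusted p = 1.38e-05). The groups did not overlap in either set, and no other cultured group reached the filter level on any array.

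Cdh5 gave a split answer. Probe set 1433956_at had 362 and 122 in amplified PGCLCs, against 1.34 and 12.4 in EpiLCs, at least 8.75-fold higher (4.87 ± 0.60, limma adjusted p = 0.000846). It had 270 and 171 in unamplified PGCLCs and was listed at 1 in both unamplified day 2 EpiLC arrays, at least 7.65-fold higher (5.68 ± 0.37, adjusted p = 5.38e-07). The other probe set, 1422047_at, stayed between 14.2 and 38.6 on all 24 arrays and was called in none of the 17 comparisons. It lay above the filter level on 7 of 12 amplified and 2 of 12 unamplified arrays. Being so near that level, it may not show a change. In a pair outside the 17 comparisons it was called higher in unamplified day 1 than day 3 EpiLCs (1.11, limma adjusted p = 0.0354). In PGCLCs it had 19.3 and 23.3 amplified, against 25.5 and 27.7 in EpiLCs. Because 1422047_at has the higher mean log2 intensity over all arrays, a summary that keeps the brightest probe set of a gene shows no change of Cdh5.

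Kdr was present everywhere and highest in PGCLCs. It had 285 and 294 in amplified PGCLCs, against 68.4 and 86.4 in EpiLCs, 3.77-fold higher (1.91 ± 0.41, limma adjusted p = 0.0142). Leaving out any 1 of these 4 arrays ended that call (adjusted p 0.0509 to 0.0939, log2 difference 1.74 to 2.08). On unamplified arrays Kdr had 183 and 186 in PGCLCs, against 59.1 and 48.0 in EpiLCs, 3.47-fold higher (1.79 ± 0.22, adjusted p = 5.96e-05).

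Pecam1 had 423 and 847 in amplified PGCLCs, against 8.09 and 24.6 in EpiLCs, at least 24.9-fold higher (5.4 ± 0.63, limma adjusted p = 0.000631). Its 2 amplified PGCLC arrays differed from each other by more than those of Emcn or Kdr did. On unamplified arrays it had 704 and 607 in PGCLCs, against 47.3 and 57.9, which is 12.5-fold higher (3.64 ± 0.22, adjusted p = 3.00e-07).

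Tek did not go the same way on the 2 kinds of array. It had 179 and 255 in amplified PGCLCs, against 35.9 and 62.6 in amplified EpiLCs, 4.51-fold higher (2.17 ± 0.34, limma adjusted p = 0.00330). On unamplified arrays it had 60.1 and 64.1 in PGCLCs, against 94.8 and 109 in EpiLCs, a log2 difference of -0.71 ± 0.19 with adjusted p = 0.00954, which is under the size needed for a call. The amplified step minus the unamplified step was 2.88 ± 0.40 (adjusted p = 0.00384). Among the 7 probe sets it was the only one called in that test, in which 0.848% of 24644 were called and 0.556% called higher, and Emcn came next with 2.07 ± 0.52 (adjusted p = 0.0753). Emcn was called in it with the floor at the 40th percentile (2.6, adjusted p = 0.00032), with 16 added before the log (2.00, adjusted p = 0.00199) and without the filter (adjusted p = 0.0377). The Actb control ratio also separated the 2 kinds of array without overlap, as given above; its part in the Tek values was not tested.

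Tal1 had 50.9 and 68.9 in amplified PGCLCs, against 79.3 and 88.8 in EpiLCs, and 28.6 and 40.8 in unamplified PGCLCs, against 55.1 and 51.6. The log2 differences were -0.50 ± 0.26 (limma adjusted p = 0.265) and -0.64 ± 0.23 (adjusted p = 0.0364), and neither was a call. Over all 24 arrays it ranged between 28.6 and 88.8, and it was called in none of the 17 comparisons.

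**Figure D2:**
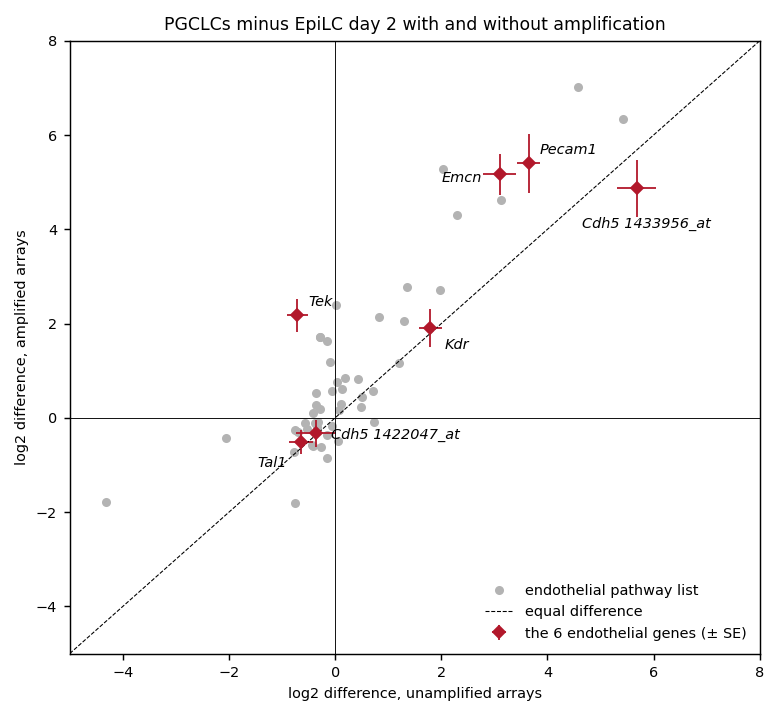
Log2 difference PGCLCs minus day 2 EpiLCs on unamplified arrays (x axis) and amplified arrays (y axis) for the 7 probe sets (red, bars are SE) and for the endothelial pathway list (grey); the dashed line marks equal differences. Tek lies above the line, at 2.17 with and -0.71 without amplification.

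In E9.5 PGCs against epiblast, 2 of 7 probe sets were called, Pecam1 and Emcn, both higher, where 9.16% of probe sets were called and 5.20% called higher. Pecam1 had 224 and 631 in PGCs and was listed at 1 in both epiblast arrays, at least 15.6-fold higher (6.48 ± 0.63, limma adjusted p = 0.000255). Emcn had 55.1 and 26.2 in PGCs, against 11.4 and 6.66 in epiblast, at least 1.58-fold higher (2.12 ± 0.44, adjusted p = 0.0156). The Emcn call was lost without PGC replicate 1 (1.59, adjusted p = 0.105) or without epiblast replicate 2 (1.74, adjusted p = 0.124). It was also lost with the floor at the 40th percentile (0.66, adjusted p = 0.256) and with only the groups compared (adjusted p = 0.0985).

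The other members were not called in PGCs against epiblast. Cdh5 1433956_at had 31.6 and 40.7 in PGCs, against 12.3 and 12.4 in epiblast (1.54 ± 0.60, limma adjusted p = 0.163). Kdr had 131 and 121, against 95.6 and 50.6 (0.85 ± 0.41, adjusted p = 0.268). Tek had 42.3 and 39.2, against 47.7 and 39.7 (-0.09 ± 0.34, adjusted p = 0.937), and these ranges overlapped. Tal1 had 49.4 and 59.0, against 70.3 and 87.3 (-0.54 ± 0.26, adjusted p = 0.268).

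Set directly against PGCLCs on amplified arrays, E9.5 PGCs had lower Emcn and Tek. These were 2 calls of 7, where 2.28% of probe sets were called and 1.19% called lower. Emcn had 55.1 and 26.2 in PGCs, against 276 and 333 in PGCLCs (-2.99 ± 0.44, limma adjusted p = 0.0103). Tek had 42.3 and 39.2, against 179 and 255 (-2.39 ± 0.34, adjusted p = 0.00899). Cdh5 1433956_at had 31.6 and 40.7, against 362 and 122 (-2.55 ± 0.60, adjusted p = 0.0668), and Kdr had 131 and 121, against 285 and 294 (-1.21 ± 0.41, adjusted p = 0.231). Neither of these was a call, nor was Pecam1 with 224 and 631, against 423 and 847 (-0.67 ± 0.63, adjusted p = 0.919). The Emcn call was lost without PGC replicate 2 (-2.46, adjusted p = 0.0528) or without PGCLC replicate 1 (-3.13, adjusted p = 0.0843) or 2 (-2.86, adjusted p = 0.113). The Tek call was lost without PGC replicate 1 (-2.45, adjusted p = 0.0539) or 2 (-2.34, adjusted p = 0.0505), or without PGCLC replicate 2 (-2.14, adjusted p = 0.101).

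Whether the germ cell step differed between embryo (PGCs minus epiblast) and culture (PGCLCs minus EpiLCs) was tested as the difference of both steps. None of the 7 probe sets was called by limma, where 0.262% of all were. The share of all probe sets with an unadjusted p under 0.05 is not given here, and 3 members were under it. These were Emcn (-3.04 ± 0.63, adjusted p = 0.107), Tek (-2.27 ± 0.49, adjusted p = 0.123) and Cdh5 1433956_at (-3.33 ± 0.84, adjusted p = 0.199), all with the smaller step in the embryo. Emcn was called with the floor at the 40th percentile (-2.99, adjusted p = 0.0195) or with 16 added before the log (-2.57, adjusted p = 0.0254).

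**Figure D3:**
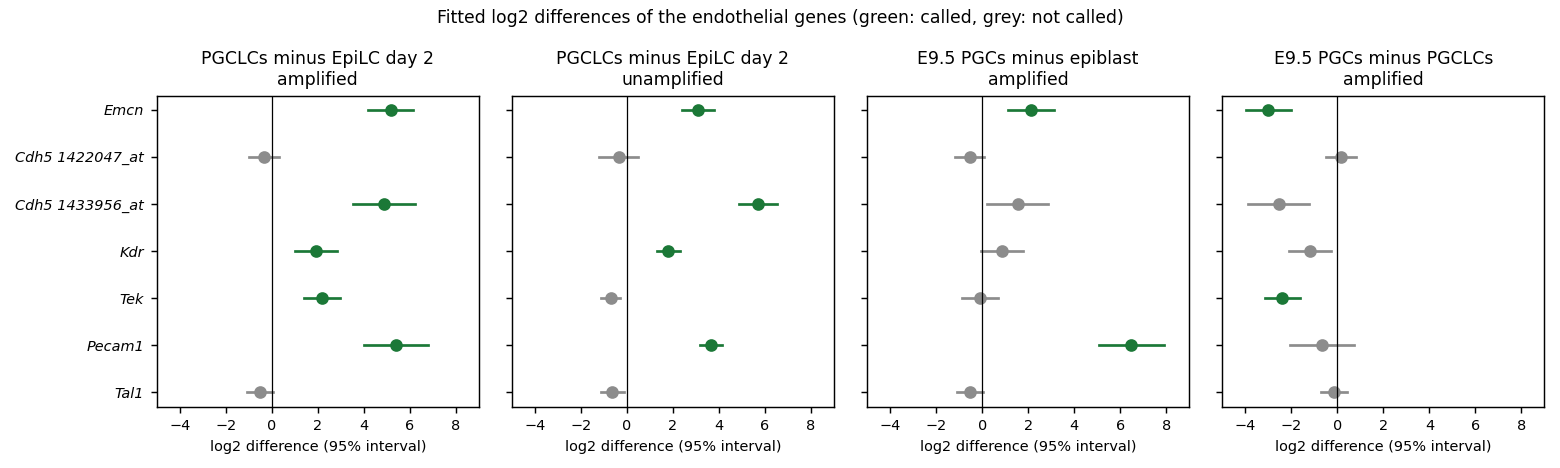
Fitted log2 differences with 95% intervals for the 7 probe sets in 4 comparisons; green marks called probe sets and grey those not called. Of 7, 5 are called higher in amplified PGCLCs against EpiLCs, 4 in unamplified ones and 2 in PGCs against epiblast, and 2 are called lower in PGCs against PGCLCs.

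Tek and Pecam1 were present in ESCs and, on unamplified arrays, lower in day 2 EpiLCs, while Emcn, Cdh5 1433956_at and Kdr were not called between these groups in either set. Over the unamplified time course, Tek had 228 and 225 in ESCs, 191 and 194 at day 1, 94.8 and 109 at day 2, and 64.5 and 75.6 at day 3. Pecam1 had 175 and 217 in ESCs, 138 and 187 at day 1, 47.3 and 57.9 at day 2, and 44.7 and 63.0 at day 3. In day 2 EpiLCs against ESCs both were called lower (Tek -1.16 ± 0.19, limma adjusted p = 0.000565; Pecam1 -1.90 ± 0.22, adjusted p = 4.54e-05), 2 of 7 where 16.3% were called and 7.47% called lower. Between single days, Pecam1 was the only call (day 2 minus day 1, -1.62 ± 0.22, adjusted p = 0.000355, 1 of 7 where 7.84% were called and 2.79% called lower). No member was called in day 1 EpiLCs against ESCs (11.8% of all called) or in day 3 against day 2 (4.61%). In each, 1 member had an unadjusted p under 0.05, a level whose share over all probe sets is not given.

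On amplified arrays, Pecam1 was lower in day 2 EpiLCs (8.09 and 24.6) than in ESCs (166 and 310), with -4.01 ± 0.63 and limma adjusted p = 0.00447, the 1 call of 7 where 7.13% were called and 3.52% called lower; without ESC replicate 2 the adjusted p was 0.0502. Day 2 EpiLCs and epiblast gave no call among the members, where 0.681% of all were called. Pecam1 alone had an unadjusted p under 0.05, again without the share over all probe sets.

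EpiSCs had the least Tek and no Pecam1 above the lowest value. Unamplified EpiSCs had 10.8 and 16 of Tek, against 94.8 and 109 in day 2 EpiLCs, at least 3.61-fold lower (-2.94 ± 0.19, limma adjusted p = 6.09e-07). Pecam1 was listed at 1 in both, against 47.3 and 57.9 (-3.64 ± 0.22, adjusted p = 3.64e-07). That size depends on the floor: with it at the 40th percentile, Pecam1 was at -0.90, under the size needed for a call. Cdh5 1433956_at had 15.8 and 28.6, against 1 in both EpiLC arrays (2.34 ± 0.37, adjusted p = 0.000369), with no fold given because both groups averaged under the filter level; with the floor at the 40th percentile it was 0.01. These were 3 calls of 7, where 19.3% were called (13.1% higher and 6.24% lower). On amplified arrays Tek was the 1 call (15.6 and 24.8 in EpiSCs, against 35.9 and 62.6; -1.27 ± 0.34, adjusted p = 0.0417; 11.4% called and 3.34% called lower), and it was lost without EpiSC replicate 1 (adjusted p = 0.106) or without EpiLC replicate 2 (adjusted p = 0.235).

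Germ cells were also set against ESCs. In amplified PGCLCs, Emcn (at least 12.6-fold, limma adjusted p = 0.000177) and Cdh5 1433956_at (at least 8.75-fold, adjusted p = 0.00215) were called higher than in ESCs, 2 of 7 where 9.8% were called and 5.38% called higher. In unamplified PGCLCs, Emcn, Cdh5 1433956_at, Kdr (1.40 ± 0.22, adjusted p = 0.000354) and Pecam1 (1.75 ± 0.22, adjusted p = 6.32e-05) were called higher and Tek lower (60.1 and 64.1, against 228 and 225; -1.87 ± 0.19, adjusted p = 1.34e-05), 5 of 7 where 21% were called (9.7% higher and 11.3% lower). On amplified arrays Tek lay the other way, with 179 and 255 in PGCLCs, against 98.8 and 88.8 in ESCs (1.19 ± 0.34, adjusted p = 0.0595). It was called higher there with the floor at the 40th percentile (adjusted p = 0.0395) and with 16 added before the log (adjusted p = 0.0271). In PGCs against amplified ESCs, Emcn was called higher (1.94 ± 0.44, adjusted p = 0.0176) and Tek lower (-1.20 ± 0.34, adjusted p = 0.0473), 2 of 7 where 12.7% were called (6.63% higher and 6.11% lower). Emcn lost this call without PGC replicate 1 or ESC replicate 1 and Tek without any 1 of the 4 arrays (adjusted p 0.127 to 0.219 over these).

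Ordered by group over the amplified arrays, PGCLCs came first for Emcn, Cdh5 1433956_at, Kdr, Tek and Pecam1, and E9.5 PGCs second for each of these but Tek. In these orders, neighbours differed by a call only for Emcn (PGCLCs over PGCs, PGCs over ESCs) and Pecam1 (ESCs over EpiLCs). Tek ran PGCLCs, ESCs, EpiLCs, epiblast, PGCs, EpiSCs, and no neighbours in it differed by a call. Over the unamplified arrays PGCLCs came first and were called above the next group for Emcn, Cdh5 1433956_at, Kdr and Pecam1, while for Tek ESCs came first and PGCLCs stood next to last. Tal1 had no neighbours that differed by a call in either set.

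Across 12 amplified arrays, and as a description only since these arrays share their groups, the pattern of Emcn was most like Tie1 (Pearson r = 0.989), Abcc9 (0.985) and Gimap6 (0.983) among 14020 probe sets that span at least 1 log2 unit between groups. Tie1, an endothelial receptor related to Tek, had 22.4 and 12.7 in PGCs and 106 and 110 in PGCLCs, and at most 5.32 on the other 8 arrays. Kdr was most like Afap1l2 (0.926), Dnm2 (0.910) and Tmem204 (0.904), Tek most like Dusp27 (0.940), Atp9a (0.925) and Erbb3 (0.925), and Pecam1 most like Chpt1 (0.972), Pip5k1b (0.966) and Car8 (0.964). The brighter Cdh5 probe set and Tal1 spanned less than 1 log2 unit and were not matched.

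A list of 57 other genes of the endothelial pathway (receptors, ligands, junction proteins and transcription factors), of which 55 had a probe set with that symbol alone, was followed with its brightest probe set per gene. The list too was chosen with earlier results of these data known, so its counts are descriptions. In amplified PGCLCs against EpiLCs, 14 of 53 tested were called higher and 1 lower. Over all probe sets, 5.87% were called higher and 1447 of 26745 lower. The list's median log2 difference was 0.44, against -0.02 over all probe sets tested. Aplnr, the apelin receptor of vessels and early mesoderm, had 598 and 489 in PGCLCs and was listed at 1 in both EpiLC arrays (at least 22.5-fold). Gata2, a blood and endothelial transcription factor, had 876 and 887, against 13.2 and 8.95 (at least 36.7-fold). The junction gene Jam2 had 145 and 182, against 1 in both (at least 6.77-fold), and the adhesion gene Icam2 had 167 and 94.8, against 1 in both (at least 5.23-fold). Tie1 and Ctla2a followed (at least 4.49-fold and 4.30-fold). The limma adjusted p of these 6 was between 3.74e-05 and 0.00592. Of the 14, 3 (Icam2, Tie1 and Ctla2a) passed the filter only through the PGCLC arrays and had to differ. In the amplification test 1 of 48 list genes tested was called, where 0.848% of all probe sets were. This was Jam2 (3.25 ± 0.56, limma adjusted p = 0.0125), with 130 and 112 in unamplified PGCLCs, against 27.1 and 32.6 in EpiLCs. ESCs had 2791 and 4035 of Jam2 on amplified arrays.

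On unamplified arrays, 9 of 50 list genes tested were called higher and 2 lower in PGCLCs against EpiLCs. Over all probe sets, 9.25% were called higher and 3236 of 26893 lower, and 2 of 50 is under that last share. The list's median was -0.08, against -0.07 over all. Gata2 (624 and 1018, against 20.4 and 16.8) and Aplnr (151 and 66.0, against 1 in both) led again, followed by Ctla2a, which passed the filter only through PGCLCs, and Ets1, while Lmo2, a partner of Tal1, was lower (15.3 and 6.77, against 179 and 228, at least 7.20-fold) and so was Rasip1. Of the genes called higher, 8 were shared, which is 57.1% of the 14 on amplified and 88.9% of the 9 on unamplified arrays. Over all probe sets called higher, the shared ones were 67.8% of those on amplified and 42.8% of those on unamplified arrays. Lmo2 was called lower on both (-1.78 ± 0.45, limma adjusted p = 0.0321, on amplified arrays).

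Transcription factors named next were chosen after their values were seen, as the closest to Tal1 in role. In amplified PGCLCs, Etv2 had 87.9 and 47.7, against 278 and 184 in EpiLCs (-1.81 ± 0.56, limma adjusted p = 0.0670). Lyl1 had 33.6 and 38.0, against 47.2 and 35.5, and Erg had 27.1 and 40.1, against 22.5 and 14.3. Neither Lyl1 nor Erg was a call, and Fli1 and Sox18 did not pass the filter on amplified arrays. Gata2 and Ets1 were thus the list's 2 transcription factors called higher in PGCLCs on both kinds of array.

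In E9.5 PGCs against epiblast, 8 of 53 list genes were called higher and 3 lower. Over all probe sets, 5.2% were called higher and 1057 of 26745 lower. The list's median was -0.05, against -0.02 over all. Cldn5, the tight junction claudin of endothelium, had 383 and 285 in PGCs, against 5.81 and 12.6 in epiblast (at least 13.8-fold). Gata2 had 408 and 447, against 26.0 and 23.6 (17.3-fold). Ets1 had 306 and 274, against 26.6 and 15.3 (at least 12.05-fold), Jam2 had 118 and 171, against 1.87 and 11.1 (at least 5.90-fold), and Aplnr had 150 and 55.3, against 8.18 and 17.5 (at least 3.79-fold). Rasip1, which acts in the opening of the vessel lumen, was lower (17.9 and 5.94, against 67.8 and 94.7, at least 3.33-fold).

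In PGCs against PGCLCs, 7 of 53 list genes were called lower and none higher, where 1.19% of all probe sets were called lower, with a median of -0.39 against 0.01 over all. The surface and junction genes Icam2 (19.5 and 1.00 in PGCs, against 167 and 94.8 in PGCLCs), Cd34 (45.9 and 17.5, against 181 and 189), Tie1 (22.4 and 12.7, against 106 and 110), Esam (84.8 and 66.6, against 357 and 282) and Robo4 (25.9 and 24.4, against 99.3 and 113) were among them, and so was Rasip1 (17.9 and 5.94, against 60.5 and 91.7). Their limma adjusted p lay between 0.0141 and 0.0412, and Icam2 and Tie1 had passed the filter only through the PGCLC arrays. In the test of the difference between both steps, 1 of 53 was called, where 0.262% of all probe sets were. This was Apln, the apelin ligand (-4.75 ± 0.64, limma adjusted p = 0.0300). It had 44.9 and 41.0 in PGCs, 110 and 113 in PGCLCs, 25.0 and 10.6 in EpiLCs and 130 and 218 in epiblast.

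**Figure D4:**
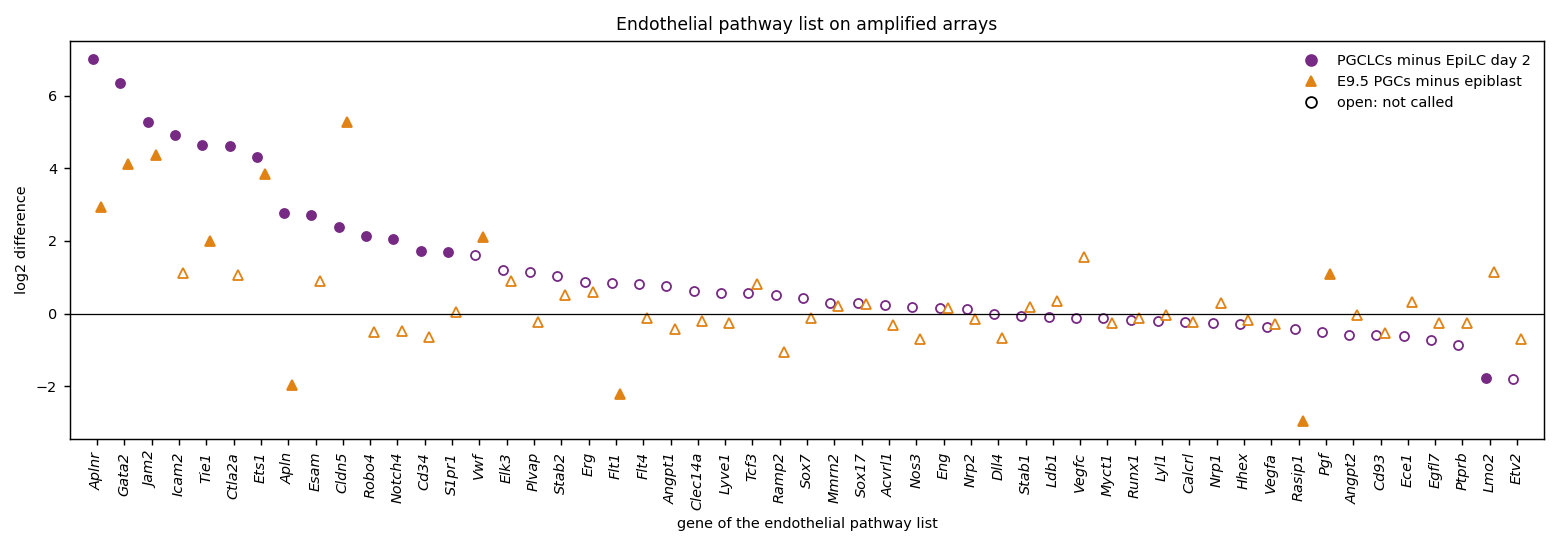
Log2 differences of the 53 tested genes of the endothelial pathway list on amplified arrays, ordered by PGCLCs minus day 2 EpiLCs (circles), with E9.5 PGCs minus epiblast (triangles); filled symbols are called. For the first step 14 are called higher and 1 lower, for the second 8 and 3.

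Some markers of other cell types also differed in the germ cell groups. Of 15 blood genes, 10 were tested. The embryonic globins Hba-x and Hbb-bh1 were called higher in PGCs against epiblast, where 5.20% of all probe sets were. Hba-x had 8258 and 3346 in PGCs, against 30.0 and 28.3 in epiblast, and Hbb-bh1 had 2683 and 582, against 29.5 and 42.7. Hbb-y, another embryonic globin, was listed at 1 in both PGC arrays, against 38.6 and 32.8. The blood list summed to 11509 and 4313 in PGCs, and to between 470 and 754 on the other 10 amplified arrays, with 4 and 8 of 15 genes at or under the filter level in PGCs. In PGCLCs the same list summed to 518 and 478 amplified, against 746 and 688 in EpiLCs. None of its 10 tested genes was called on either kind of array, where 11.3% (amplified) and 21.3% (unamplified) of all probe sets were. Hba-x stood at 17.1 and 21.4 in amplified PGCLCs, below the filter level.

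Of 14 mesenchyme and fibroblast genes, 7 were called higher and 1 lower in PGCs against epiblast, where 9.16% of all probe sets were called and 5.20% called higher. In PGCs against PGCLCs, 5 were called higher, where 2.28% of all probe sets were called. Meox1, a somite homeobox gene, had 354 and 113 in PGCs, against 1 in both PGCLC arrays, and Twist1 had 279 and 49.7, against 3.66 and 6.82. The list summed to 2881 and 1211 in PGCs, against 849 and 888 in PGCLCs, and EpiSCs had 7477 and 4348. PGC replicate 1, with the larger blood and mesenchyme sums, also had the larger Emcn value (55.1, against 26.2 in replicate 2) but the smaller Pecam1 value (224 and 631). Cdh5 1433956_at (31.6 and 40.7) and Tal1 (49.4 and 59.0) were smaller in replicate 1 too. Kdr (131 and 121), Tek (42.3 and 39.2) and Cdh5 1422047_at (26.0 and 21.6) were larger in it by less than Emcn was. The 5' over 3' control ratios of PGC replicates 1 and 2 also differed, at 0.0802 and 0.206 for Actb and 0.239 and 0.830 for Gapdh. The part of blood or mesenchyme markers, or of these ratios, in the PGC values of endothelial genes was not tested. In amplified PGCLCs against EpiLCs, 2 mesenchyme genes were higher and 2 lower, and of 15 hindgut and endoderm genes none was higher and 4 were lower. Over all probe sets, 11.3% were called there and 5.87% called higher. In unamplified PGCLCs, 5 of 13 mesenchyme genes tested were called higher and 3 lower, and of 14 hindgut genes 1 was higher and 3 were lower. Over all probe sets, 21.3% were called there and 9.25% called higher, and 1 of 14 is not above that share. The collagen gene Col3a1 had 235 and 374 in unamplified PGCLCs, against 10.02 and 13.4 in EpiLCs (at least 10.5-fold), and Pdgfra had 76.7 and 58.7, against 6.02 and 5.61 (at least 2.39-fold). The hindgut factor Cdx2 had 168 and 873, against 1.45 and 1.00 (at least 13.6-fold). Other named genes of these lists went the other way. Thy1 of the mesenchyme list was at least 4.40-fold lower, and Cldn6 and Krt18 of the hindgut list were 6.74-fold and 4.93-fold lower. The mesenchyme list summed to 2982 and 3135 in unamplified PGCLCs, against 2387 and 2313 in EpiLCs. The part of these markers in the endothelial values of PGCLCs was not tested.

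The endothelial pathway list itself summed to 6376 and 5677 in PGCs, 8772 and 7843 in amplified PGCLCs, 4954 and 4901 in EpiLCs, and 4584 and 4388 in epiblast. In amplified PGCLCs 4 and 5 of its 55 genes were at or under the filter level, in PGCs 12 and 13, in EpiLCs 16 in both and in epiblast 15 and 16. ESCs and EpiSCs also had sums of 6131 to 8688, so the sum did not set germ cells apart.

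**Figure D5:**
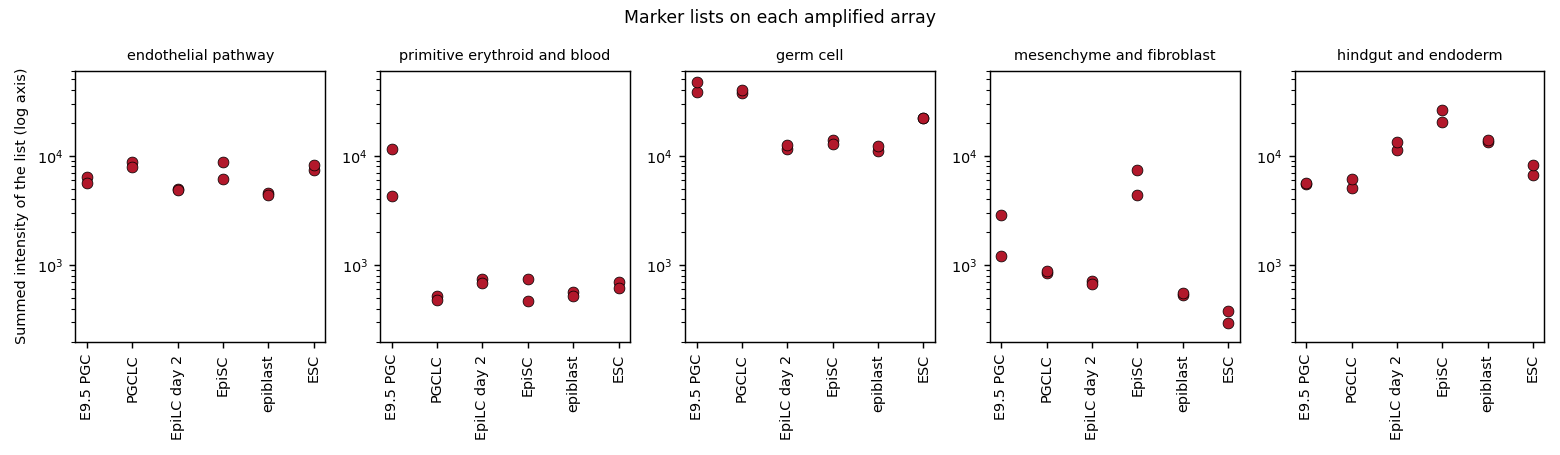
Summed intensity (log axis) of 5 marker lists on each amplified array, by group; each point is 1 array. The blood list stands at 11509 and 4313 in E9.5 PGCs and between 470 and 754 elsewhere, and the germ cell list is highest in PGCs and PGCLCs.

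The amplified arrays of replicate 1 share 1 code at the start of the array name and those of replicate 2 another. The groups of each member call in the amplified germ cell steps did not overlap. Differences within a code therefore had to keep their direction, and are given only for their size. In PGCLCs against EpiLCs the log2 differences within the codes were 4.92 and 5.41 for Emcn, 6.43 and 3.3 for Cdh5 1433956_at, 2.06 and 1.77 for Kdr, 2.32 and 2.03 for Tek, and 5.71 and 5.10 for Pecam1. In PGCs against PGCLCs they were -2.32 and -3.67 for Emcn and -2.08 and -2.70 for Tek. On unamplified arrays PGCLCs and EpiLCs shared a code only in replicate 2, where Tek differed by -0.76 and Emcn by 3.00.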

How the data were processed

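The deposited file lists a linear intensity for each of 45101 probe sets on 24 arrays, prepared per the labels' protocols from RNeasy total RNA as biotinylated cRNA (Affymetrix one-cycle labelling), with PCR amplification first for 12 of them. How the authors normalized the deposited intensity values, and with which software, was not given in the sources used here; precision is limited by having 2 arrays per group. Replicates are called biological, but separate cultures or litters are not stated, and the p-values cover only the spread among these samples, which may be technical. Probe sets were named from the platform annotation, which lists 34945 for 1 symbol, 932 for several and 9211 for none.

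Values under 4.20, the table's 10th percentile, were raised to it before log2. Within each set of 12 arrays, kept apart, limma 3.58.1 (R 4.3.3; lmFit with 1 mean per group, eBayes with an intensity trend) was fitted to 26745 amplified and 26893 unamplified probe sets. The amplification test used all 24 arrays and the 24644 probe sets that passed in both. The fit was tried on simulated data with independent noise on each array. That trial does not cover the pairing by replicate number given below. Figures and promoter matches were made with Python 3.11.15, pandas 2.3.3 and matplotlib 3.10.9.

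Members and lists were chosen with earlier results of these data known. By rule, all 7 member probe sets are named, with up to 6 called genes of the endothelial pathway list and up to 3 of each other list by size of difference. Alternatives were another floor, a pseudocount of 16, no filter, 2 scalings, 2 ways of summarising probe sets, only the groups compared, a replicate block, each array left out in turn, and, chosen after seeing the data, both EpiSC arrays left out. Replicate numbers were not used as a block, because the rule asked that deviations of same-numbered arrays correlate above 0.1 in every pair of groups. They did for 14 of 15 pairs on amplified arrays (lowest 0.0975, median 0.413) and for 6 of 15 on unamplified arrays (median 0.0822). The main fits on amplified arrays thus leave out a pairing seen in most pairs of groups.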

Additional observations from a re-analysis of the deposited data

Results flagged for a closer look

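Tek was the only member singled out, because its PGCLC minus day 2 EpiLC difference was not the same on amplified and unamplified arrays by a test of the difference itself. The amplified step exceeded the unamplified one by 2.88 on the log2 scale (± 0.40 SE, limma adjusted p = 0.00384). Tek had 179 and 255 in amplified PGCLCs, against 35.9 and 62.6 in amplified EpiLCs, and 60.1 and 64.1 in unamplified PGCLCs, against 94.8 and 109 in unamplified EpiLCs. In ESCs it had 98.8 and 88.8 on amplified arrays, and 228 and 225 on unamplified arrays.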

How the results depend on the processing

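Of 236 counts of called members under an alternative, 200 stayed within 1.5 times the main count and 36 did not. With the floor at the 40th percentile, the count was 1 in PGCs against epiblast (main 2), 1 in the difference of both germ cell steps (main 0), 1 in PGCs against ESCs (main 2), 0 in amplified EpiSCs against EpiLCs (main 1), 1 in unamplified EpiSCs against EpiLCs (main 3) and 2 in the amplification test (main 1). With 16 added before the log it was 1, 1, 0 and 2 in the difference of steps, PGCs against ESCs, amplified EpiSCs against EpiLCs and the amplification test. Without a filter it was 1, 0 and 2 in the last 3 of these. With only the groups compared it was 1 in PGCs against epiblast, 0 in PGCs against PGCLCs, 1 in PGCs against ESCs and 0 in amplified EpiSCs against EpiLCs, in fits with fewer arrays. With the replicate number as a block it was 4 in amplified PGCLCs against ESCs (main 2), 2 in amplified EpiSCs against EpiLCs and 2 in the amplification test (Emcn added, adjusted p = 0.0461), and the block ended no call of a member. With 1 probe set per gene, amplified PGCLCs against ESCs gave 1, since the other Cdh5 probe set is kept. Quantile normalization gave 2 in unamplified day 2 against day 1 EpiLCs (main 1). Leaving out 1 array gave 1 to 2 calls in PGCs against epiblast, 0 to 1 in PGCs against PGCLCs, 0 to 1 in PGCs against ESCs, 0 to 1 in amplified EpiLCs against ESCs, 0 to 1 in amplified EpiSCs against EpiLCs and 1 to 2 in unamplified day 2 against day 1 EpiLCs. Taking the mean of a gene's probe sets turned Cdh5 1422047_at to 2.27 and 1.97 (amplified PGCLCs against EpiLCs and ESCs) and to 2.66 and 2.27 (unamplified), since that mean holds 1433956_at. Where no cause is given, it was not tested. Over all probe sets, calls ranged over the alternatives from 1106 to 3435 in PGCs against epiblast (main 2449), 1440 to 4228 in amplified PGCLCs against EpiLCs (3018), 0 to 1035 in PGCs against PGCLCs (609), 2 to 248 in the difference of steps (70), 1778 to 4407 in PGCs against ESCs (3406), 1218 to 3493 in amplified PGCLCs against ESCs (2621), 793 to 2848 in amplified EpiLCs against ESCs (1907), 0 to 466 in EpiLCs against epiblast (182), 616 to 6233 in amplified EpiSCs against EpiLCs (3036) and 42 to 680 in the amplification test (209). On unamplified arrays they ranged from 3060 to 6208 in PGCLCs against EpiLCs (5724), 3034 to 6426 against ESCs (5649), 2445 to 4628 in EpiLCs against ESCs (4380), 1765 to 3312 at day 1 (3167), 1168 to 2192 in day 2 against day 1 (2109), 567 to 1313 in day 3 against day 2 (1239) and 2808 to 5579 in EpiSCs against EpiLCs (5197). Quantile normalization split the amplified EpiSC against EpiLC calls into 1805 higher and 1201 lower (main 2142 and 894). Centring each array on its median moved the median of all probe sets in unamplified PGCLCs against EpiLCs to 0.03 (main -0.07).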
